A study of Mus musculus with 2 samples.

Results

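Ribosomal protein genes are described here in nuclei of the mouse heart. They were taken by name, as the genes named Rpl or Rps with a number, to which Rplp0, Rplp1, Rplp2 and Rpsa were added. The rule found 79 of the 25235 genes listed in either library, and all 79 were listed in both. The subunit was taken from the name alone (Rpl or Rps), which gave 47 genes of the large and 32 of the small subunit. They lie on 19 chromosomes, 76 on autosomes and 3 on the X chromosome (Rpl10, Rps4x and Rpl36a). Rpl30, Rpl31, Rpl39 and the paralogs Rpl10l, Rpl39l and Rps4l were looked for and not analysed here.

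The data are single-nucleus RNA-seq of 1 adult heart (9 weeks) and 1 aged heart (78 weeks) of F1 hybrid females from a C57BL/6J (BL6) mother and a CAST/EiJ (CAST) father. The study calls these animals wild-type, and the genotype label names the plain cross, whereas the breed label names a mother heterozygous for an Xist deletion. Nuclei of all cell clusters were pooled, and only nuclei with the BL6 X chromosome as the active X (Xa) were kept, chosen by a chromosome-wide BL6 share on the X of at least 0.8. Reads covering a SNP between the strains were counted per gene and allele, 9747535 for the adult and 5805807 for the aged heart. Values are RPM, which is reads scaled to 1000000 SNP-overlapping reads of the library, and the BL6 share of the reads, which the study calls the allelic ratio. RPM of one gene can be set between ages, but not between genes, since it depends on a gene's length and SNPs. With 1 library per age there is no replicate and no test, so an animal's own level cannot be told apart from its age. All intervals are exact or Newcombe 95% intervals that cover counting error only. They take each read as independent. Whether reads of one molecule were collapsed is not given in the sources used here, and if they were not, the intervals are too narrow. In pooled nuclei, more nuclei of a type and more RNA per nucleus cannot be told apart either.

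The ribosome is built from ribosomal RNA and a set of ribosomal proteins, most of which are present once per ribosome, and their genes are used in every cell. The genes are short, several carry small nucleolar RNA (snoRNA) genes in their introns, and many transcripts start in a run of pyrimidines through which growth signals control their translation. Processed pseudogenes of ribosomal protein genes are common in mammalian genomes. On the X chromosome, genes that resist inactivation are read from both X chromosomes, and in these nuclei CAST reads of an X-linked gene are read as reads of the inactive X (Xi).

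The promoters of the members were searched for 4 letter patterns. RefSeq promoters of build GRCm38.p6, which reach from 250 bases before to 50 after the start of transcription, were matched to 60 members and to 17767 listed genes in all, and 44 of the 60 started at the edge of the deposited locus. All 4 patterns searched are given, and the pyrimidine rule was set after start sequences had been seen. A pyrimidine run (C followed by at least 7 bases that are C or T, transcribed strand, from 50 bases before the start to 50 after) was found in 47 of 60 member promoters (78.3%) and in 27.9% of all promoters. CCGGAAG, a core letter string of ETS family sites, was found on either strand in 22 (36.7%, against 11.9% of all). AAGATGGC, letters of YY1 sites, was found on either strand in 6 (10.0%, against 3.42%), and TATAAA on the transcribed strand also in 6 (10.0%, against 6.39%). Among members with enough reads in both libraries, the median aged/adult ratio was 1.47 with the pyrimidine run (n = 37) and 1.59 without it (n = 13), and 1.46 and 1.496 with and without the ETS letters (n = 21 and n = 29). A match is a description of letters, not of a bound site. The stretches from 120 bases before to 30 bases after the start are shown for the measured X-linked members (Rps4x and Rpl10), for 2 members with large aged/adult ratios (Rps21 and Rps18) and for the most-read member (Rpl3l), with matches to the 4 patterns in capitals. They lie at chrX:102189362-102189511 (minus strand), chrX:74270696-74270845 (plus), chr2:180257259-180257408 (plus), chr17:33955636-33955785 (minus) and chr17:24727706-24727855 (plus), in that order.
Rps4x: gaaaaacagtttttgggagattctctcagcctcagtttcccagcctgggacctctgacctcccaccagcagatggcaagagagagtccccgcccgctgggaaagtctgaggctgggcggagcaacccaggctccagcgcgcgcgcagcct
Rpl10: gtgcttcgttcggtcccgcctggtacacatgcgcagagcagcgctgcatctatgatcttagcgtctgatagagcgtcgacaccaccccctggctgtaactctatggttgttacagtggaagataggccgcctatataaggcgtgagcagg
Rps21: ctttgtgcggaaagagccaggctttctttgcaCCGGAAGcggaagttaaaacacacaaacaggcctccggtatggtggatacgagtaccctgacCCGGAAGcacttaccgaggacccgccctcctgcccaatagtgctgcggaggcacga
Rps18: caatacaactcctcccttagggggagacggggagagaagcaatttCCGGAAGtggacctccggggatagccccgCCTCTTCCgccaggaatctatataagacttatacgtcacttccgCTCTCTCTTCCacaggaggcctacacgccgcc
Rpl3l: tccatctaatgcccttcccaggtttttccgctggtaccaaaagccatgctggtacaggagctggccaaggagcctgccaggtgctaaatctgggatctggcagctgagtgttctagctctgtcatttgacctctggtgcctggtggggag
Rps21 carried the ETS letters at 2 places, and Rps18 carried them once beside 2 pyrimidine runs, 1 of them across the start. None of the 4 patterns was matched in the stretches of Rps4x, Rpl10 and Rpl3l.

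Ribosomal protein genes took a small part of the reads and took more of them in the aged heart. They held 11034 adult reads (0.113% of all, 1132 RPM) and 9476 aged reads (0.163%, 1632 RPM), a ratio of 1.44 (interval 1.40 to 1.48). Median reads per member were 88 and 83, with ranges of 1 to 1403 and 2 to 871. A minimum of 20 reads in both libraries was reached by 63 members, 35 of the large and 28 of the small subunit, and the counts and medians that follow are over these 63. The other 16, of which 13 had a ratio above 1, included Rpl8, Rpl12, Rpl15, Rpl18, Rpl22l1, Rpl27, Rpl29, Rpl32, Rpl32l, Rpl36a, Rplp1, Rps9, Rps16, Rps23 and Rps27a.

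The ratio of RPM was above 1 for 61 of the 63 members, whereas it was above 1 for 64.2% of all 12736 genes with the same minimum and for 76.6% of the 2251 other genes whose locus spans under 10 kb. Short genes are the closer comparison, because 78 of the 79 members span under 10 kb (median 3139 bases, from 592 to 11774). The interval of the ratio lay above 1 for 46 members (background 42.3% of all genes and 45.2% of the other short genes), included 1 for 17 and lay below 1 for 0. A ratio of 1.5 or more was seen for 32 of 63 members, or 50.8%, with a background of 28.0% over all genes and 43.0% over the other short genes. No member was lower by 1.5-fold, against 11.8% of all genes and 6.53% of the other short genes (6.36% with the members counted in). The median ratio was 1.52 (0.60 on the log2 scale), with quartiles of 1.29 and 1.74 and a range of 0.982 to 2.55. It was 1.17 over all genes and 1.37 over the other short genes, so that the members' median was 1.30 times the first and 1.10 times the second. The members' median sits at the 1.5-fold limit, and scaled by the median of ratios of well-read genes, which takes the median of all genes from 1.17 to 1.01, 19 members passed the limit and the members' median was 1.31. On that scale 57 of 63 had a ratio above 1, and the interval lay above 1 for 27 members and below 1 for 1, Rpl3l. There 18.6% of all genes and 31.0% of the other short genes passed the limit, and the other short genes had a median of 1.19.

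**Figure D1:**
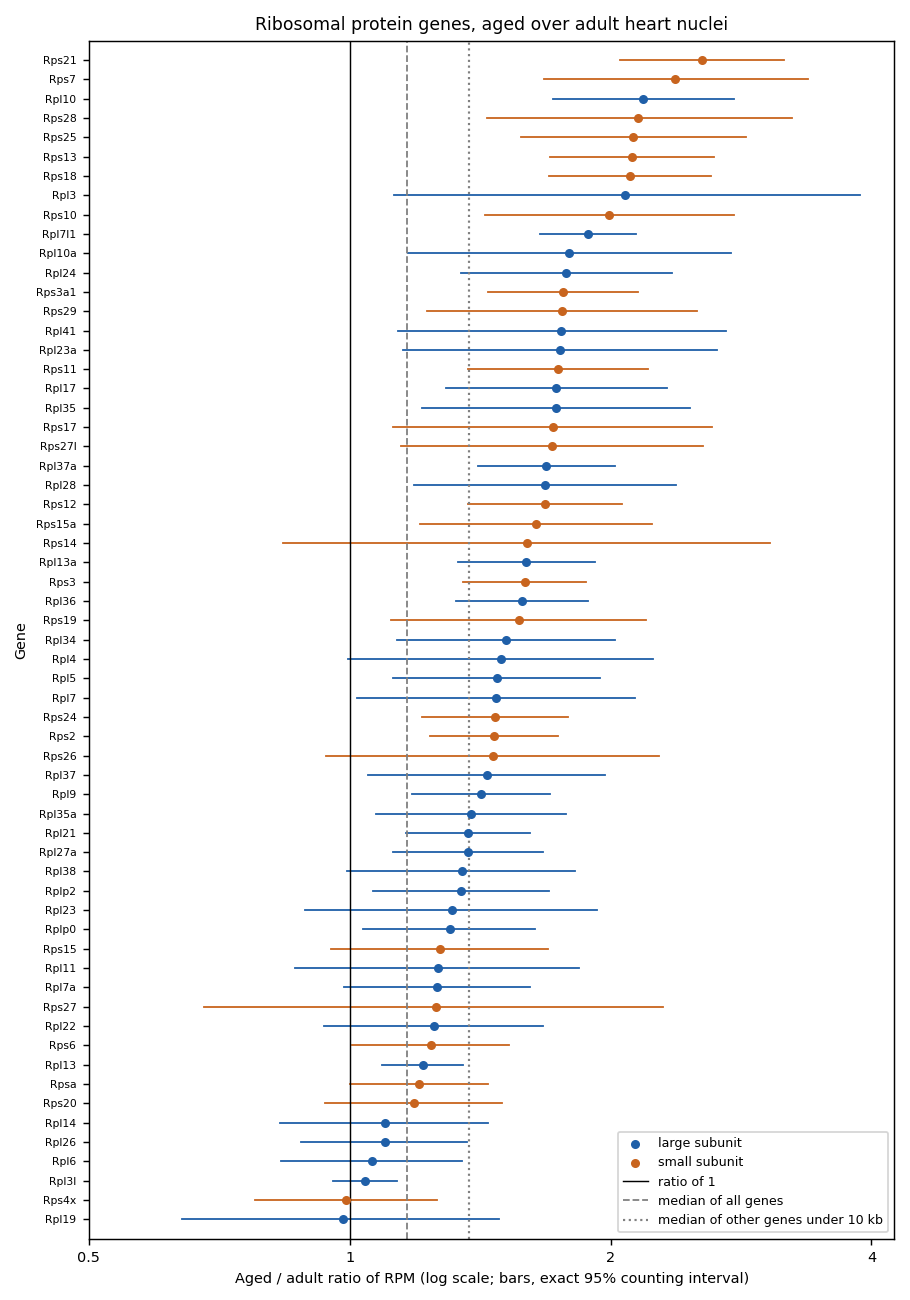
Aged/adult ratio of RPM (x axis, log scale) of 61 of the 63 ribosomal protein genes with at least 20 reads in both libraries (y axis, ordered by ratio), with points in blue for the large and orange for the small subunit and bars for the exact 95% counting interval. The vertical lines mark a ratio of 1, the median of all genes (1.17) and the median of other genes under 10 kb (1.37), and 59 of 61 points lie to the right of 1.

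Small subunit genes had the higher ratios. Their median was 1.66, and 18 of 28 (64.3%) passed 1.5-fold, while large subunit genes had a median of 1.44 and 14 of 35 (40%) passed. The background was 28.0% over all genes and 43.0% over the other short genes, so the share of the large subunit lay below that of the other short genes. The combined reads gave 1.57 (1.501 to 1.641) for the small and 1.37 (1.32 to 1.42) for the large subunit, and without Rpl3l, the most-read gene, the ratio over all members was 1.5001. Rpl3l, with a ratio of 1.04, held 1403 of the 7015 adult and 871 of the 5719 aged reads of the large subunit, which lowers the combined ratio of that subunit. The difference between the subunits was not tested.

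**Figure D2:**
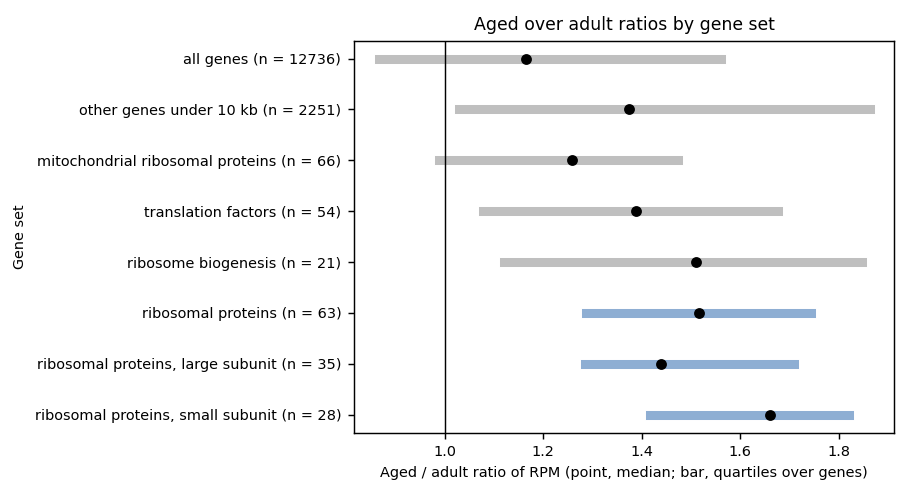
Aged/adult ratio of RPM by gene set, with points for the median and bars for the quartiles over genes with at least 20 reads in both libraries (n in the labels). Ribosomal proteins have a median of 1.52, against 1.37 for other genes under 10 kb and 1.17 for all genes.

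Among the members with at least 100 reads in each library, Rps21, Rpl10, Rps13, Rps18, Rpl7l1 and Rpl24 had the highest ratios. Rps21, a small subunit protein of a locus of 1075 bases on chromosome 2, had 143 adult and 217 aged reads, or 14.7 (12.4 to 17.3) and 37.4 (32.6 to 42.7) RPM. Its ratio of 2.55 (2.05 to 3.17) was the highest of all 63. The X-linked Rpl10, a large subunit protein that is among the last to join the ribosome, had 12.7 (10.6 to 15.2) and 27.7 (23.6 to 32.4) RPM, a ratio of 2.18 (1.71 to 2.78). For these 2 genes, as for Rps13, Rps18, Rpl7l1 and Rpl24, the aged RPM interval lay above the adult one. The small subunit genes Rps13 and Rps18 had ratios close to that of Rpl10. Rps13 had 15.8 and 33.4 RPM, a ratio of 2.12 (1.70 to 2.63). Rps18 had 16.2 adult and 34.1 aged RPM, and a ratio of 2.10 (1.70 to 2.61). Rpl24, a large subunit protein that reaches across to the small subunit, had 10.5 and 18.6 RPM and a ratio of 1.78 (1.34 to 2.35). In all, 8 members had a ratio of 2 or more, among them Rps7, Rps25, Rps28 and Rpl3, which have fewer than 100 reads in at least 1 library and wider intervals.

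At the low end stood Rps4x, Rpl3l, Rpl6, Rpl26, Rps20 and Rpsa. Rps4x, the X-linked small subunit gene, had 188 adult and 111 aged reads, or 19.3 (16.6 to 22.2) and 19.1 (15.7 to 23.0) RPM, and a ratio of 0.991 (0.777 to 1.26). Rpl6 had 18.7 and 19.8 RPM (ratio 1.06, 0.833 to 1.35). Rpl26, which lies near the exit of the peptide tunnel, had 21.6 and 23.8 RPM (1.10, 0.880 to 1.37). For all 3 genes the interval included 1, and it did so for Rps20 (1.19, 0.935 to 1.499) as well. Rpsa, also known as the laminin receptor, had 29.3 and 35.3 RPM and a ratio of 1.203 (1.001 to 1.445). The lowest ratio of all 63, that of Rpl19, rests on 65 and 38 reads (0.982, 0.640 to 1.49). Both X-linked members with enough reads were therefore near opposite ends of the order, and their own intervals did not overlap.

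The most-read members included Rpl3l, Rpl13, Rpl7l1, Rps3 and Rpl21. Rpl3l, the paralog of Rpl3 used in heart and skeletal muscle, had 1403 adult and 871 aged reads, or 144 (136 to 152) and 150 (140 to 160) RPM. Its ratio of 1.04 (0.957 to 1.14) was the only one whose interval lay below the median of all genes, and it was 0.903 (0.829 to 0.984) when scaled by the median of ratios. Rpl13 had 82.3 and 99.9 RPM (1.21, 1.09 to 1.35). The ratio of this large subunit gene was below that of the median member, and scaled by the median of ratios it was 1.05 (0.944 to 1.17), an interval that includes 1. Rps3, at the entry of the mRNA channel, had 31.5 and 50.1 RPM (1.59, 1.35 to 1.87), and Rpl21 33.5 and 46.0 RPM (1.37, 1.16 to 1.62). Without the 10 most-read members, the median ratio of the other 53 was 1.57.

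Paralogs named with an l did not move as a group relative to their parent genes. Rpl3, the widely used partner of Rpl3l, was listed with only 21 adult and 26 aged reads, or 2.15 (1.33 to 3.29) and 4.48 (2.93 to 6.56) RPM, and a ratio of 2.08 (1.12 to 3.89). The intervals of Rpl3l and Rpl3 met only between 1.12 and 1.14. Rpl7l1, a paralog of Rpl7, had 460 and 516 reads, 47.2 (43.0 to 51.7) and 88.9 (81.4 to 96.9) RPM, and a ratio of 1.88 (1.66 to 2.14), the highest among the 6 most-read members. Rpl7 itself had 6.77 and 9.99 RPM and a ratio of 1.48 (1.02 to 2.13), which overlapped that of Rpl7l1. Rps27l had 52 and 53 reads, 5.33 and 9.13 RPM and a ratio of 1.71 (1.14 to 2.56), beside 1.26 (0.680 to 2.30) for Rps27, and these intervals overlapped too. Rpl22l1 was listed with 12 and 5 reads, too few for a ratio to be read, and Rpl22 had 11.7 and 14.6 RPM (1.252, 0.934 to 1.67).

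Of the stalk proteins, which bind translation factors, Rplp0 had 18.4 and 23.9 RPM (1.30, 1.04 to 1.64) and Rplp2 17.0 and 22.9 RPM (1.35, 1.06 to 1.70), while Rplp1 had 25 and 18 reads. Of the proteins that form a particle with 5S rRNA and can bind Mdm2, Rpl5 had 12.0 and 17.7 RPM (1.48, 1.12 to 1.94) and Rpl11 7.08 and 8.96 RPM (1.27, 0.865 to 1.84). Rps27a, made as a fusion with ubiquitin, had 16 reads in each library. Ribosomal protein genes outside the naming rule include Fau and Rack1. Their ratios were 1.03 (0.841 to 1.26) for Fau and 0.472 (0.290 to 0.742) for Rack1, which had 89 adult and 25 aged reads.

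Other genes of protein synthesis had medians above 1 on this scale, as all genes did (1.17, with 28.0% higher and 11.8% lower by 1.5-fold). The translation factors (54 with enough reads of 62 listed) had a median of 1.39, with 19 higher (35.2%) and 1 lower by 1.5-fold. Among them Eef1a1, the common elongation factor that brings tRNA to the ribosome, had 12.1 and 34.6 RPM (2.86, 2.27 to 3.62), while its muscle and nerve paralog Eef1a2 had 33.8 and 29.97 RPM (0.888, 0.735 to 1.07). Genes of ribosome biogenesis (21 of 26) had a median of 1.51, with 11 higher (52.4%) and 0 lower, such as Nop56 (1.92, 1.28 to 2.88) and Ncl (1.51, 1.22 to 1.87). Mitochondrial ribosomal proteins (66 of 77) had a median of 1.26, with 16 higher and 2 lower, a share higher of 24.2% that is below the one over all genes. Kept to loci under 10 kb, the mitochondrial ribosomal proteins (n = 43) and the translation factors (n = 16) had medians of 1.37 and 1.36, next to the 1.37 of other short genes.

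Cell type markers also differed between the libraries. Over nuclei of either Xa, the study reported a lower share of cardiomyocytes and a higher share of fibroblasts in the aged heart. Summed reads of cardiomyocyte markers (7 of 7 with enough reads) had an aged/adult ratio of 1.197 (1.188 to 1.206). Their single ratios ran from 0.976 to 4.11 with a median of 1.15, beside 1.17 over all genes. Myh6 and Tnnt2, both defining markers of cardiomyocytes, had 2135 and 1245 adult RPM and ratios of 1.15 (1.12 to 1.17) and 0.976 (0.947 to 1.005). The ratio of summed reads was 1.66 (1.60 to 1.72) for fibroblast markers (5 of 6), 1.60 (1.54 to 1.66) for endothelial markers (5 of 5), 2.69 (2.52 to 2.87) for markers of pericytes and smooth muscle (4 of 5) and 1.60 (1.52 to 1.69) for macrophage markers (5 of 5). Lymphocyte markers reached the minimum for 1 of 5 genes, and red blood cell markers for 2 of 4 (0.9001, 0.826 to 0.980). Ttn, the giant sarcomere gene, is not in the marker list. It took 11849 RPM of the adult and 6872 RPM of the aged library. Its ratio of 0.580 (0.573 to 0.587) was below the range of the cardiomyocyte markers. The Ttn locus spans 278578 bases. Genes outside the members that span 10 kb or more had a median ratio of 1.13, and those under 10 kb 1.37. The part of these differences in the ratios of the ribosomal protein genes was not tested.

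On the autosomes, the median BL6 share of ribosomal protein genes was above that of all genes. Over the 61 autosomal members with enough reads, the median BL6 share was 58.7% at 9 weeks and 60.2% at 78 weeks, against 53.4% and 53.7% for all autosomal genes and 52.7% and 52.6% for the other short genes. Other genes of protein synthesis also had medians above that of all genes, with 55.4% and 58.1% for translation factors (56.7% and 59.7% for the 16 under 10 kb) and 55.0% and 56.7% for ribosome biogenesis, while mitochondrial ribosomal proteins had 52.5% and 53.9%. The pooled reads of the autosomal members gave 60.7% in both libraries. Single shares ran from 33.3% to 95.6% at 9 weeks and from 36.0% to 92.6% at 78 weeks. The interval of the share lay above the autosomal median in both libraries for 18 of 61 members (29.5%), with a background of 13.7% of all autosomal genes and 8.71% of short ones. It lay below in both for 1 member, Rpl23, with a background of 12.8% and 9.02%. Across the 30 autosomal members with at least 100 reads in each, adult and aged shares correlated with Pearson's r of 0.84 and Spearman's rho of 0.81, and across all 61 with 0.66 and 0.63. The points share their genes, SNPs and reference genome, so this describes how alike the shares of both libraries were and is no test.

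**Figure D3:**
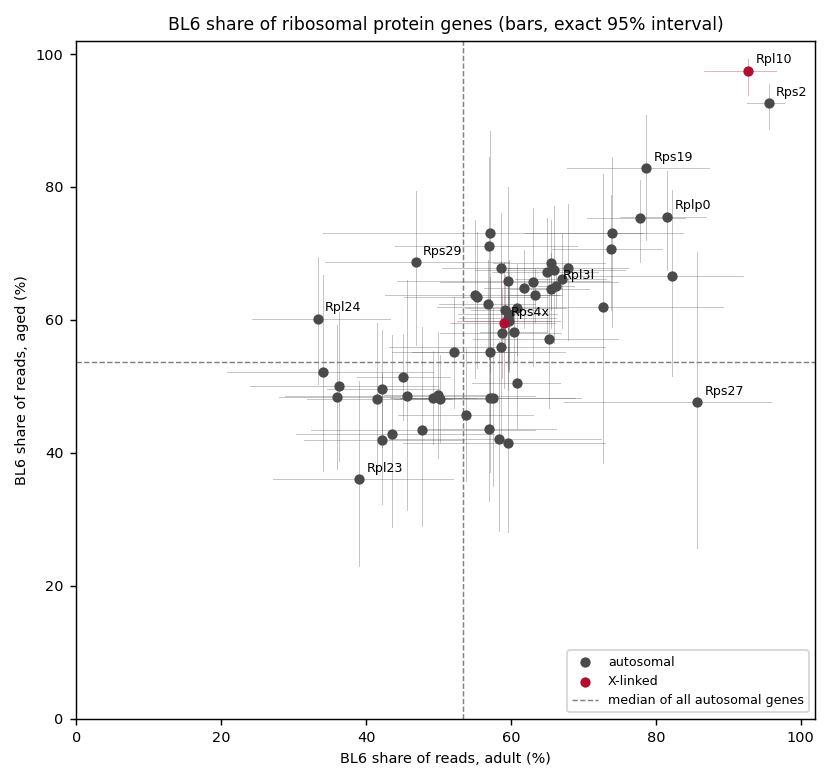
BL6 share of reads in the adult (x axis) and aged (y axis) library of the 63 ribosomal protein genes with at least 20 reads in both, with autosomal genes in grey, X-linked genes in red and bars for the exact 95% interval. Dashed lines mark the medians of all autosomal genes (53.4% and 53.7%). Rps2 and Rpl10 stand at the upper right, and the X-linked Rps4x lies among the autosomal genes.

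Rps2, a small subunit protein, had the highest BL6 share of the autosomal members. Adult reads were 282 from BL6 and 13 from CAST (95.6%, 92.6 to 97.6), and aged reads were 239 and 19 (92.6%, 88.7 to 95.5). Its locus, chr17:24720063-24721927, has Ndufb10, a subunit of respiratory complex I, beside it at chr17:24722067-24724388 and Rpl3l at chr17:24727829-24736149. Ndufb10 had BL6 shares of 54.8% and 58.1% and Rpl3l of 66.2% and 65.1%, so the share of Rps2 was not that of its neighbours. Rps19, the small subunit gene most often mutated in Diamond-Blackfan anaemia, had 78.7% (67.7 to 87.3) and 82.9% (72.0 to 90.8). The stalk base Rplp0 had 81.6% (75.1 to 87.0) and 75.5% (67.5 to 82.4). Rps18 had 77.8% and 75.3%, and Rpl11 73.9% and 73.1%. All these members were high in both libraries, and none of their changes between ages had an interval off 0. Rpl23, the single member whose intervals lay below the autosomal medians in both libraries, had 39.1% (27.1 to 52.1) and 36.0% (22.9 to 50.8), and both intervals include an even share.

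A change of BL6 share beyond counting error was detected for few members. The Newcombe interval of the change excluded 0 for 4 of 61 (6.56%), Rpl9, Rpl24, Rps27 and Rps29, with a background of 26.5% of all autosomal genes and 18.2% of short ones. Whether an interval excludes 0 depends on a gene's reads. The members had medians of 88 and 83 reads, and the background was not matched for reads, so a lower count does not show steadier shares. Rpl24 was read 34 times from BL6 and 68 times from CAST at 9 weeks (33.3%, 24.3 to 43.4), and 65 and 43 times at 78 weeks (60.2%, 50.3 to 69.5). Its adult and aged intervals did not overlap, and it passed from the CAST to the BL6 side. Rpl9 went the other way, from 60.8% (54.7 to 66.8) to 50.5% (43.7 to 57.2). Rps27 had 85.7% and 47.6% on 28 and 21 reads, and Rps29 had 46.9% and 68.7% on 64 and 67 reads. The next largest changes among members with 100 reads were those of Rpl7a (58.6% to 67.8%), Rpl5 (53.8% to 45.6%) and Rplp2 (42.2% to 49.6%), with intervals that included 0. Summed over the autosomal members, BL6 reads had an aged/adult RPM ratio of 1.44 (1.393 to 1.497) and CAST reads of 1.436 (1.373 to 1.502), so the ratios of the alleles did not differ beyond counting error.

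Most members have near-identical pseudogene copies, and most other genes do not. In GENCODE M21, 71 of the 78 members with a transcript had at least 1 pseudogene transcript of at least 95% identity over 200 bases or more, against 7.09% of 16192 genes. The median was 4 copies, with 60 for Rpl21, 38 for Rpl7a, 32 for Rps2, 10 for Rpl10 and 7 for Rps4x. The definition was chosen after its counts had been seen. Under the one tried first, which asked for 1 alignment over at least 50% of the transcript, 55 of 78 members had a copy, against 2.29% of genes. By the 200-base definition, the 6 autosomal members without a copy (among them Rpl3l, Rpl41, Rplp2, Rps27l and Rps29) had median BL6 shares of 47.3% and 49.1%, and the 55 with a copy 59.2% and 60.2%. Their pooled reads gave 62.2% and 61.2% without a copy, where Rpl3l held 1403 adult and 871 aged reads, and 60.4% and 60.6% with one. By the definition tried first, the medians were 57.1% and 58.1% for 19 members without a copy and 58.9% and 60.2% for 42 with one. The split by copies is thus seen in medians under 1 of the definitions only, rests on 6 genes there and is not seen in pooled reads. The number of copies and the BL6 share over both libraries had a rho of 0.27 over 61 members. How reads of copies were assigned was not tested, and the shares and ratios of members with copies are uncertain to that extent.

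Some members overlap other loci or host snoRNA genes. The loci of 15 members overlap another listed locus, such as Snora64 in Rps2 and Snord15b in Rps3, against 41.3% of all genes with enough reads. The 28 members that host 56 snoRNA genes had a median ratio of 1.47 (n = 24), and the others 1.58 (n = 39). A ratio of 1.5 or more was seen for 10 of the 24 hosts (41.7%) and for 22 of the 39 others (56.4%). The background was 28.0% over all genes and 43.0% over the other short genes. The difference between hosts and others was not tested. Without the overlapping members the median ratio was 1.496 (n = 52).

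The X-linked members differed from each other. In nuclei with a BL6 Xa, an X-linked gene that is silent on the Xi has a BL6 share near 100%, and the 344 X-linked genes with enough reads had a median of 97.6% in both libraries. Rpl10, at chrX:74270816-74273135, was read 115 times from BL6 and 9 times from CAST at 9 weeks (92.7%, 86.7 to 96.6), and 157 and 4 times at 78 weeks (97.5%, 93.8 to 99.3). Rps4x, at chrX:102184941-102189391, had 111 and 77 (59.0%, 51.7 to 66.1) and 66 and 45 (59.5%, 49.7 to 68.7). Rpl36a was listed with 1 adult and 2 aged reads, all BL6. Rpl10 thus lay near the other X-linked genes in the aged library, while its adult interval lay below their median of 97.6%. Rps4x lay at the level of the autosomal members, whose medians were 58.7% and 60.2%. The change of Rps4x between ages, adult minus aged, was -0.417 percentage points (-11.6 to 11.1), and that of Rpl10 was -4.77 (-10.9 to 0.268), so a change was not detectable for either at this depth.

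By the study's cutoff, an allelic ratio of 0.9 or lower, Rps4x was below it in both libraries and Rpl10 in neither, though the adult interval of Rpl10 (86.7% to 96.6%) included 90%. The cutoff was met by 9.59% of X-linked genes at 9 weeks and by 12.2% at 78 weeks, and by 17.1% and 29.3% of the 41 that span under 10 kb. The upper limit of the share of Rps4x lay below 90% in both libraries, as it did for 4.65% of the X-linked genes and 9.76% of the short ones. Counting Rps4x itself, 5 of 344 X-linked genes had an adult share as low as Rps4x, and 9 an aged share. Among the short ones these were Gm14719, which the study left out as a probable false positive for its low allelic ratio in males but which is counted in the shares here, and, in the aged library, Ndufb11, a subunit of respiratory complex I with 61.3% and 46.5%, whose locus overlaps Rbm10. Cox7b, a subunit of cytochrome c oxidase at a locus of 6751 bases, had 99.3% and 99.2% on 1917 and 1297 reads. Eif2s3x, an initiation factor gene known to be read from both X chromosomes, had 68.8% (63.4 to 73.8) and 65.7% (58.9 to 72.1), and the interval of Rps4x overlapped these.

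**Figure D4:**
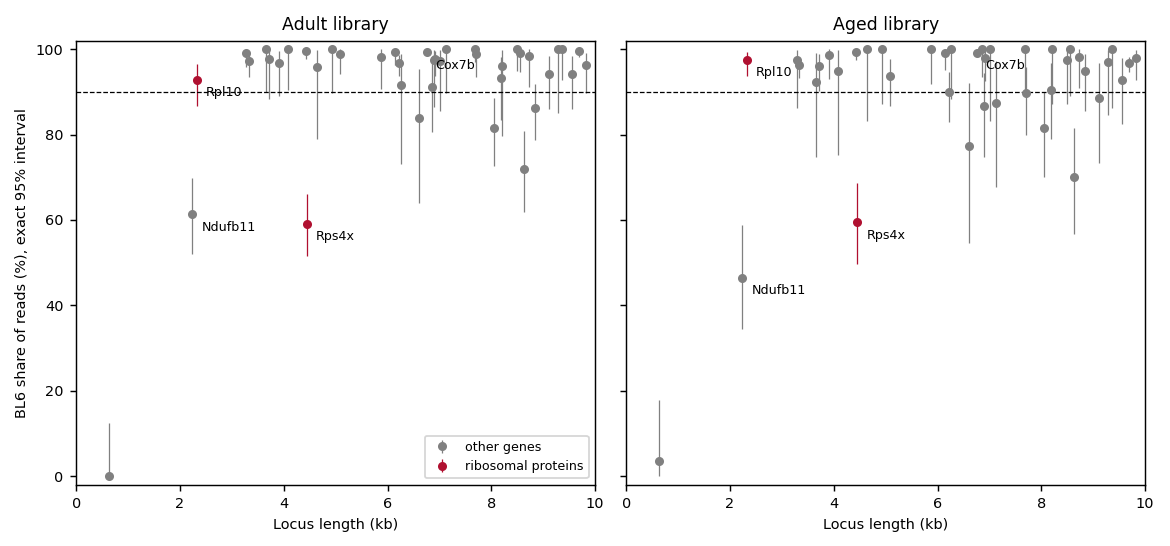
BL6 share of reads (y axis, bars for the exact 95% interval) against locus length (x axis, kb) of the 41 X-linked genes under 10 kb with at least 20 reads in both libraries, adult on the left and aged on the right, with ribosomal protein genes in red. The dashed line marks 90%. Rps4x lies at 59.0% and 59.5%, whereas Rpl10 lies at 92.7% and 97.5%.

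The levels of the alleles differed in the same way between the X-linked members. Rps4x had 11.4 (9.37 to 13.7) and 11.4 (8.79 to 14.5) RPM from BL6 and 7.90 (6.23 to 9.87) and 7.75 (5.65 to 10.4) RPM from CAST. Its ratios were 0.998 (0.725 to 1.37) and 0.981 (0.664 to 1.44), so both alleles stayed within counting error. Rpl10 had 11.8 (9.74 to 14.2) and 27.0 (23.0 to 31.6) RPM from BL6, a ratio of 2.29 (1.79 to 2.94), but 0.923 (0.422 to 1.75) and 0.689 (0.188 to 1.76) RPM from CAST, a ratio of 0.746 (0.168 to 2.67). For Rpl10 the aged interval lay above the adult one for BL6 reads and overlapped it for CAST reads. The study removed background RNA from its expression matrices with CellBender and doublets with DoubletFinder, and whether the allelic counts used here were so treated is not given in the sources used here. Over all X-linked genes without Xist and Tsix, 97.1% of adult and 96.6% of aged reads were BL6. These shares are partly set by the choice of nuclei, which asked for a BL6 share on the X of at least 0.8, and are no check of it. Xist, which is made by the Xi, had BL6 shares of 4.18% and 3.14%. Human RPS4X is known to be read from both X chromosomes, while the mouse gene has been described as silenced on the Xi. Rps4x has 7 pseudogene copies of at least 95% identity, up to 98.5%, and the part of their reads in its CAST share was not tested.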

How the data were processed

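Single-nucleus RNA-seq of 1 adult and 1 aged heart was analysed. The authors aligned reads with Cell Ranger 7.1.0, clustered nuclei with Seurat 5.1.0 (versions from the submitters' processing notes), split alignments by nucleus and Xa, pooled nuclei with a BL6 Xa and counted SNP-overlapping reads per RefSeq gene of mm10 (GRCm38) and allele with Allelome.PRO2. The deposited counts are not normalized. The deposited allelic ratio is a fraction from 0 to 1 with 2 decimals, used here for the cutoff of 0.9, and the deposited score was not used. Whether reads of one molecule were collapsed is not given in the sources used here. For the aged heart, the file name and the labels differ in weeks, and the 78 weeks of the labels was used.

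Samples were grouped by their age labels. RPM is reads scaled to 1000000 reads over all genes of a library, and shares were computed from the counts. Shares have Clopper-Pearson, RPM exact Poisson, ratios conditional binomial and changes of share Newcombe intervals. A minimum of 20 reads in each library was applied. Coordinates count from 1. Python 3.11.15, numpy 2.4.6, pandas 2.3.3, scipy 1.17.1 and BLAST+ 2.17.0 (megablast, pseudogene copies) were used, and the interval functions were tested on simulated data. Promoters come from RefSeq.

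The members and lists were chosen with earlier results of these data known. Genes named are the X-linked members, paralogs with an l and their parents, the 6 most read, the 6 highest and 6 lowest in ratio with 100 reads, the 5 highest and 5 lowest in BL6 share with intervals on 1 side of the autosomal median in both libraries, the 5 with the largest change of share, and the stalk, 5S particle, Rpsa and Rps27a. Values of some genes are not reported here, but they enter the medians and counts. Rpl19, Rpl41, Rps7, Rps25, Rps28, Rps29 and the genes that are no members were named after their values were seen. The lists under 10 kb of translation factors and mitochondrial ribosomal proteins, the snoRNA split and the copies were added after the data were seen. Alternatives were other read minimums, scales, folds, cutoffs, thinned adult reads and members left out.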

Additional observations from a re-analysis of the deposited data

How the results depend on the processing

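No paired analysis was possible because each age has 1 library and no replicate numbers. Over results on the whole set, 73 alternatives stayed within the limits set for them and 14 moved, and over single genes 147 stayed and 3 moved. Scaled by the median of ratios, the combined ratio was 1.2498, the median log2 ratio 0.39 and the number of members 1.5-fold higher 19. The combined ratio was 1.5001 without Rpl3l. The number higher was 13 with 100 reads in each library (of 32 members), 52 at a limit of 25% higher and 8 at 2-fold. The adult median BL6 share of autosomal members was 60.7% with pooled reads. Without members with a pseudogene copy over 200 bases, which was added after seeing the data, it was 47.3% at 9 weeks and 49.1% at 78 weeks, below the median of all autosomal genes (53.4% and 53.7%) where the members as a whole lay above it, and without members with a copy over 50% of the transcript, the definition tried first, 57.1% and 58.1%. Pooled reads of the members without a copy over 200 bases gave 62.2% and 61.2%, above that median. Members below the autosomal median in both libraries numbered 2 with 10 reads, 0 with 100 reads and 0 against an even share. With a cutoff of 0.95, 2 X-linked members were at or below it in the adult library. Fewer members are left at higher minimums, and the cause of the other shifts was not tested. Of 79 members, 16 had too few reads, no age has a replicate, and cell type markers differed between ages.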
